A study of Homo sapiens with 4 samples.

Results

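The sterol genes examined here were the 8 named as HMGCS1, SQLE, MSMO1, ACAT2, INSIG1, IDI1, FDFT1 and SREBF2, chosen by name and matched to array probes through the platform annotation. Of the 8, 6 had a probe, 1 each, out of 18639 named genes on the array. IDI1, the isomerase of the isoprenoid steps, and FDFT1, squalene synthase, were named for 0 probes and were not analysed here. None of the 6 measured genes acts in cholesterol uptake. The measured set is therefore 4 enzymes of synthesis and 2 regulators.

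The cells were HEK293, a kidney-derived human line in long-standing laboratory use, and were transgenic (Tg) for LGP2, a cytoplasmic RNA-binding helicase related to RIG-I, or for LGP2-4KR, whose suffix the labels leave undefined. Each line was sampled at 0 h and again 12 h after Lipofectamine had delivered 100 ng/ml of short (LMW) poly I:C, a man-made RNA duplex. The 4 groups are thus LGP2 cells at 0 h, LGP2 cells at 12 h, 4KR cells at 0 h and 4KR cells at 12 h, with 1 single-colour array each. All 4 shared the HEK293 background and a transgene, no array came from mock-transfected or parental cells, and the labels do not say how many clones either line represents.

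Cells make cholesterol from acetyl-CoA through mevalonate, squalene and lanosterol, and take it up with lipoproteins. Both supplies are controlled by SREBP2, the membrane-bound transcription factor encoded by SREBF2, which SCAP escorts from the endoplasmic reticulum to the Golgi for cleavage when sterols are low. INSIG proteins hold SCAP back when sterols are plentiful, and INSIG1 is itself a target of SREBP, so its RNA is commonly read with that of the enzymes. SREBP binds sterol regulatory elements and E-boxes in promoters, usually beside a CCAAT box bound by NF-Y.

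Promoters from the RefSeq table (GRCh38.p14) are shown because these elements are the ones the members could share. They are printed for SREBF2, INSIG1, HMGCS1 and MSMO1, as the 200 bases before the start, 5′ to 3′ on the gene's strand. Their positions are chr22:41832905-41833104 (plus strand), chr7:155297678-155297877 (plus), chr5:43313413-43313612 (minus) and chr4:165327469-165327668 (plus), in that order. Capitals mark every match, on either strand, to CCAAT (read as ATTGG on the other strand), to CACGTG (the E-box) and to the sterol regulatory element, whose letters are the first run of capitals in the SREBF2 sequence, and no matches overlapped.
SREBF2: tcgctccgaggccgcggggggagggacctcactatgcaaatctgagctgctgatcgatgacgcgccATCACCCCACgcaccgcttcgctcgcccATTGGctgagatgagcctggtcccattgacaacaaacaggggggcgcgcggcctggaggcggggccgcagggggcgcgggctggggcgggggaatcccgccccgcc
INSIG1: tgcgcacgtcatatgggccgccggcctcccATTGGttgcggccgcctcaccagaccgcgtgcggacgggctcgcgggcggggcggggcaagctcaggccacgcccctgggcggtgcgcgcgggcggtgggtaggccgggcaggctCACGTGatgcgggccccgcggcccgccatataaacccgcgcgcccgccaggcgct
HMGCS1: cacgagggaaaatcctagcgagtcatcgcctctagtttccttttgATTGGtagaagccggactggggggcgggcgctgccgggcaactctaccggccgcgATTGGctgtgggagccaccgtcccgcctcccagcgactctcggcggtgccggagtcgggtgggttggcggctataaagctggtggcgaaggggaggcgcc
MSMO1: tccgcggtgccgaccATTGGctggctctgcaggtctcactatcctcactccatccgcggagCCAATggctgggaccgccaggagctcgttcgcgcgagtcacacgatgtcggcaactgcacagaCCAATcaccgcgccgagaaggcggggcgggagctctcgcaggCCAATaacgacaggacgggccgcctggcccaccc

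All 4 printed windows held at least 1 CCAAT box, with 4 in MSMO1, 2 in HMGCS1 and 1 each in INSIG1 and SREBF2. With the other starts of these genes and IDI1, which are not printed, 6 of 8 windows held one. SQLE and ACAT2 are not shown. A CCAAT box stood in 28% of all 35116 promoter windows of this length, so its presence in these is a description. The sterol regulatory element in those exact letters stood only in the SREBF2 window among the 4, from 134 to 125 bases before the start, and in 12 of the 35116 windows (0.0342%). INSIG1 held the E-box, 55 to 50 bases before its start, as did 5.49% of all windows. Other spellings of the element were not searched.

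The arrays carried 24460 gene probes, and between 83.2% and 89.2% of them were above the blank spots. All 6 members were detected on all 4 arrays. So were the 5 HEK293 markers that had a probe (NEFL, NEFM, VIM, KRT18 and PAX2). Of 6 markers of other cell types, PTPRC, PECAM1 and ALB (leukocytes, endothelium, hepatocytes) were detected on 0 arrays, and CD3E, CD14 and CDH5 passed the blank threshold on 4, 4 and 3. Of 9 interferon-response genes 8 rose in the fit described below, where 7.95% of all genes rose. DHX58, at 0.01 (log2) in LGP2 cells and 0.39 in 4KR cells, did not pass. MX1 was higher at 12 h by 0.64 in each line, and IFIT1 by 6.58 in LGP2 cells and by 7.08 in 4KR cells. The IFIT1 probe lies in print block 24, and with the correction by print block and level described below its values were 6.98 and 6.97. The signal of the arrays themselves also differed: above the blank level, the median detected probe was 1.35 times brighter at 12 h than at 0 h in LGP2 cells and 1.60 times in 4KR cells. Unless stated otherwise, ratios are on the log2 scale, computed with an offset of 50 and quantile normalization, which gave every array 1 distribution. A lower value for a gene therefore means lower relative to the other genes on the array. With 1 array a group, no ratio of a single line has a test. The only test is an additive limma fit over all 17085 detected genes, in which the lines stand in for replicates of the 12 h against 0 h contrast, with 1 residual degree of freedom per gene and Benjamini-Hochberg adjustment over all genes. Its p-values cover the spread between the lines, not between cultures.

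The first question was how the sterol genes stood 12 h after short poly I:C. They stood a little lower than at 0 h relative to the other genes. In the fit HMGCS1, MSMO1 and INSIG1 fell, and were 1.33-fold, 1.34-fold and 1.3-fold lower over both lines. SREBF2 was 1.28-fold lower without passing the threshold, and SQLE and ACAT2 were lower in 4KR cells alone, but in both lines once corrected for print block and level, a correction described with the comparison of the lines. The 6 members had a median log2 ratio of -0.30 in LGP2 cells and -0.41 in 4KR cells, against -0.01 in each line for all genes, and 0 of the 6 reached 2-fold in either line, as 0.442% and 0.412% of all genes did. In LGP2 cells 4 of 6 were below 0, as were 54% of all genes, and in 4KR cells 6 of 6 were, as were 54.3%. Without normalization between arrays both member medians lay above 0, at 0.03 and 0.13, but below those of all genes, at 0.12 and 0.26, and in the fit 0 of 6 members then fell and 1 rose, SQLE at 0.25 (limma adjusted p = 0.044), where 0.123% of all genes fell and 40.5% rose.

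HMGCS1 (gene ID 3157), the cytosolic synthase that condenses acetyl-CoA with acetoacetyl-CoA to HMG-CoA, had deposited intensities of 216.4 in LGP2 cells at 0 h and 188.1 at 12 h, and of 203.0 in 4KR cells at 0 h and 153.0 at 12 h. Both arrays at 12 h were below both at 0 h. As a log2 ratio the response was -0.36 for LGP2 cells and -0.46 for 4KR cells. In the limma fit HMGCS1 fell by 0.41 ± 0.04 (SE, 2 lines) with an adjusted p of 0.0269. Before any scaling its scanner signal above the blank level was 0.998 times the 0 h value for LGP2 cells and 1.09 times for 4KR cells, on arrays whose median probe was brighter at 12 h. The part of the array-wide brightness in this result was not tested.

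MSMO1 (gene ID 6307), the methylsterol monooxygenase that removes methyl groups after lanosterol, had intensities of 272.1 and 218.5 in LGP2 cells at 0 h and 12 h. In 4KR cells they were 244.1 and 191.4. Again both 12 h arrays were below both 0 h arrays, and the lines were close together, with log2 ratios of -0.44 and -0.41. MSMO1 fell by 0.42 ± 0.03 (SE, 2 lines; limma adjusted p = 0.0242).

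SQLE (gene ID 6713), squalene epoxidase, the oxygen-dependent enzyme that commits squalene to sterols, did not follow HMGCS1 and MSMO1 in LGP2 cells. Its intensities were 561.3 and 626.6 in LGP2 cells at 0 h and 12 h, and 545.1 and 422.2 in 4KR cells. The 12 h array of 4KR cells was thus the lowest of the 4 and that of LGP2 cells the highest. The log2 ratios were 0.07 and -0.35, or -0.31 and -0.26 when corrected for block and level, and the uncorrected mean of both lines, -0.14 ± 0.12 (SE), had a limma adjusted p of 0.524.

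ACAT2 (gene ID 39), the cytosolic thiolase that makes acetoacetyl-CoA in the first step of the pathway, had the same arrangement. Its intensities were 1182 and 1241 in LGP2 cells and 1218 and 852.9 in 4KR cells. Only the 12 h array of 4KR cells stood apart. The log2 ratios were 0.10 and -0.42, or -0.28 and -0.27 when corrected for block and level, with an uncorrected mean of -0.16 ± 0.15 (SE; limma adjusted p = 0.549).

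Of the regulators, INSIG1 (gene ID 3638), the sterol-sensitive anchor of SCAP, had intensities of 204.7 and 170.1 in LGP2 cells at 0 h and 12 h and of 169.8 and 140.6 in 4KR cells. Each line was lower at 12 h, but 4KR cells began where LGP2 cells ended. The log2 ratios were -0.41 and -0.34, and INSIG1 fell by 0.38 ± 0.04 (SE, 2 lines; limma adjusted p = 0.0259).

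SREBF2 (gene ID 6721), which encodes SREBP2, had intensities of 66.2 and 62.5 in LGP2 cells and 58.3 and 39.7 in 4KR cells. The 12 h array of 4KR cells was the lowest, and the log2 ratios were -0.24 and -0.48. The mean of -0.36 ± 0.07 (SE) had a limma adjusted p of 0.0672 and did not pass the threshold.

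**Figure D1:**
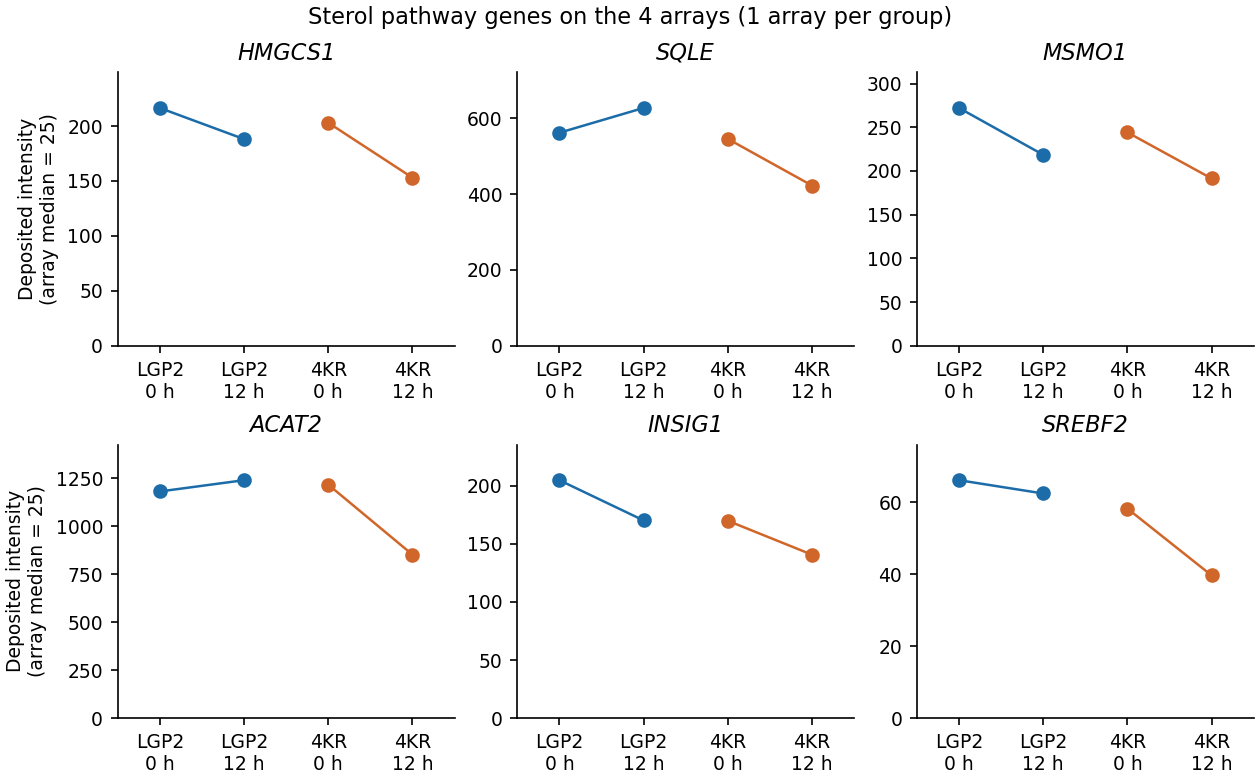
Deposited intensity (linear axis from 0, scaled by the authors to an array median of 25) of the 6 measured sterol genes on the 4 arrays; each point is 1 array, lines join 0 h and 12 h of a cell line, and there are no error bars because each group has 1 array. HMGCS1, MSMO1, INSIG1 and SREBF2 are lower at 12 h in both lines, whereas SQLE (561.3 to 626.6) and ACAT2 (1182 to 1241) are lower only in 4KR cells, unless corrected for print block and level; before scaling, the signal of HMGCS1 at 12 h was 0.998 and 1.09 times that at 0 h.

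In counts, 3 of the 6 members (HMGCS1, MSMO1 and INSIG1) were lower by at least 0.32 (log2) in LGP2 cells, where 4.53% of all genes were. In 4KR cells all 6 were, where 4.73% of all genes were. Corrected by block and level, 1 of 6 was in LGP2 cells and 2 of 6 were in 4KR cells. The share of all genes was not counted for that correction. In the fit over both lines 3 of 6 fell and 0 rose, against 7.3% of all genes that fell and 7.95% that rose. The members are bright genes, and bright genes were called more often: in the tenth of genes by mean level that holds HMGCS1, MSMO1 and INSIG1, 18.3% fell. The running median of the 500 genes nearest in level ran from -0.02 to -0.06 over the 6 members and both lines, and with it removed the mean responses had a median of -0.35, with all 6 below 0. With plain subtraction of the blank level 0 of 6 members passed the limma test (adjusted p between 0.1 and 0.565), at a median of -0.46, and 0 of all 17085 genes fell. An unadjusted limma p under 0.05 was reached there by 4 of 6 members and 4993 genes. On the authors' deposited values 0 of 6 passed as well, at a median of -0.29, where 0.257% of all genes fell. With those values 1 of 6 members and 6049 of 15968 genes had an unadjusted limma p under 0.05.

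**Figure D2:**
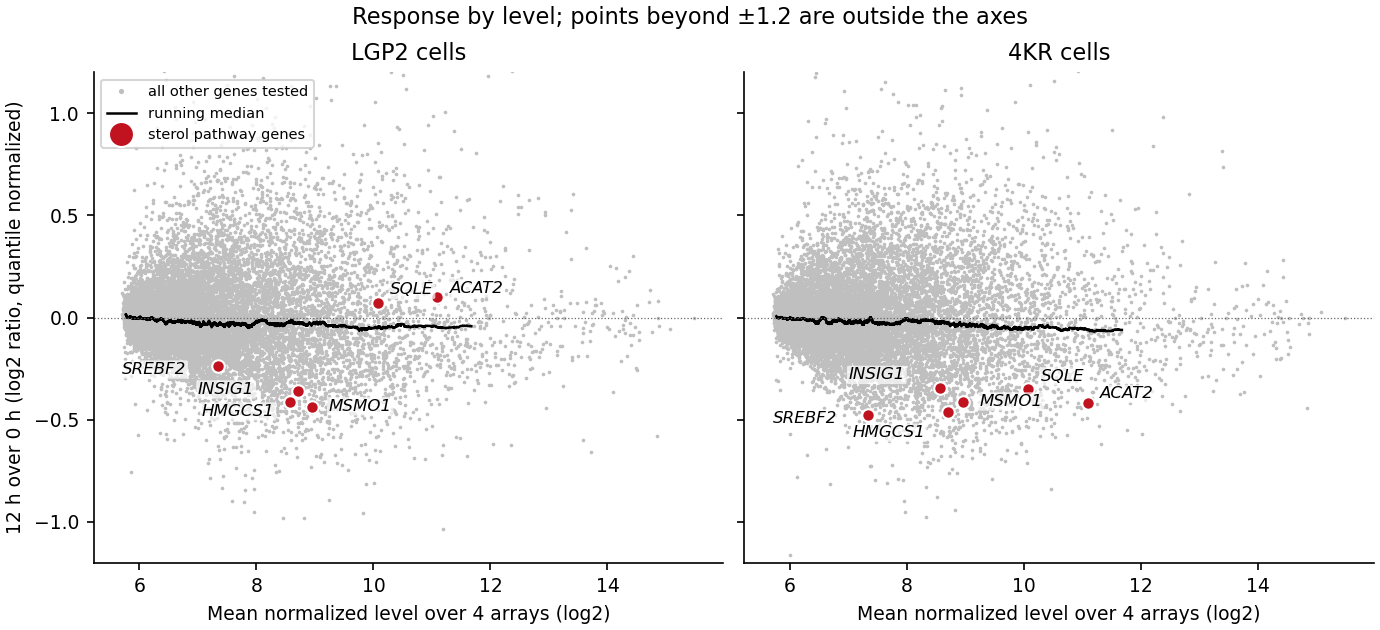
Log2 ratio of 12 h over 0 h (vertical axis, quantile normalized) against the mean normalized log2 level over the 4 arrays (horizontal axis) for LGP2 cells (left) and 4KR cells (right); grey points are all other genes tested, the line is their running median and red points are the 6 sterol genes. The sterol genes lie between -0.44 and 0.10 in LGP2 cells and between -0.48 and -0.34 in 4KR cells, below the running median except for SQLE and ACAT2 in LGP2 cells; without normalization between arrays the medians of the 6 were above 0.

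The second question was whether 4KR cells differed from LGP2 cells in these genes. At 12 h all 6 members were lower in 4KR than in LGP2 cells, as were 50.8% of all genes. The log2 ratios of 4KR over LGP2 cells were -0.41 for SQLE, -0.41 for ACAT2, -0.36 for SREBF2, -0.16 for HMGCS1, -0.14 for INSIG1 and -0.07 for MSMO1, with a median of -0.26. The first 3 of these were lower by at least 0.32, where 0.662% of all genes were. At 0 h the ratios ran from -0.21 for INSIG1 to 0.11 for ACAT2, and 0 of 6 were lower by 0.32, where 1.77% of all genes were. In the fit with the times standing in for replicates, 0 of 6 members and 0 of 17085 genes passed limma's adjusted p of 0.05, and 2 members and 828 genes had an unadjusted p below it. INSIG1, at -0.18 with a 95% interval of -0.29 to -0.07, and SREBF2, at -0.24 with an interval of -0.46 to -0.02, had unadjusted limma p-values of 0.0123 and 0.0421.

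The response itself was lower in 4KR than in LGP2 cells by at least 0.32 for SQLE and ACAT2, at -0.42 and -0.52, and for 2.06% of all genes. SREBF2 was at -0.24, HMGCS1 at -0.10, MSMO1 at 0.02 and INSIG1 at 0.07. These differences have no test. SQLE and ACAT2 share a print block of the array, block 21 of 24, and in that block the responses of many probes differed the same way. Over its 737 detected probes the median difference was -0.15, the lowest of the 24 blocks. Over its 191 probes with a mean level above 8, as both genes have, it was -0.39, and 60.2% of these were lower by at least 0.32. The same 191 probes had medians of 0.30 for the response in LGP2 cells and -0.08 in 4KR cells. The other members lie in blocks 1, 2, 6 and 17, whose bright-probe medians of the difference lay between -0.05 and 0.06. For the response itself, these bright-probe medians ran from -0.14 to -0.05 in LGP2 cells and from -0.12 to -0.08 in 4KR cells.

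A correction by block alone left SQLE and ACAT2 at -0.36 and -0.45. A correction by block and level, chosen after seeing the data, subtracted on each array the running median of the 100 probes of the block nearest in level. The responses of SQLE then were -0.31 in LGP2 cells and -0.26 in 4KR cells. Those of ACAT2 were -0.28 and -0.27. The differences of the responses came to 0.06 for SQLE and 0.0027 for ACAT2, and all 6 mean responses lay between -0.35 and -0.27. With it 5 of 6 members fell in the fit, where 10% of all genes fell and 14.2% rose, SQLE at an adjusted p of 0.0109 and ACAT2 at 0.0095, with SREBF2 the exception at 0.0798. The ratios of 4KR over LGP2 cells at 12 h came to -0.13 for SQLE and -0.09 for ACAT2, while that of SREBF2, in block 1, was -0.34. SREBF2 was then the only 1 of the 6 members lower by at least 0.32 in this comparison, for which the share of all genes was not counted with this correction.

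**Figure D3:**
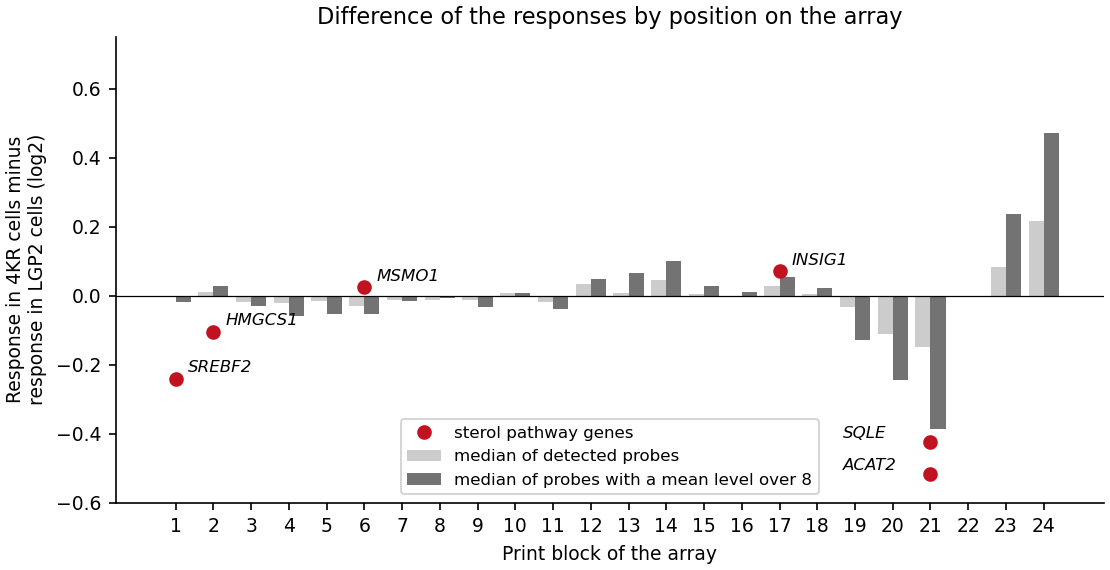
Difference of the responses (4KR minus LGP2, log2, quantile normalized) by print block of the array; bars are the medians of the detected probes of a block (light) and of those with a mean log2 level over 8 (dark), and red points are the 6 sterol genes. SQLE (-0.42) and ACAT2 (-0.52) lie in block 21, whose bright probes have a median of -0.39, and the other 4 genes lie in blocks with medians near 0.

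**Figure D4:**
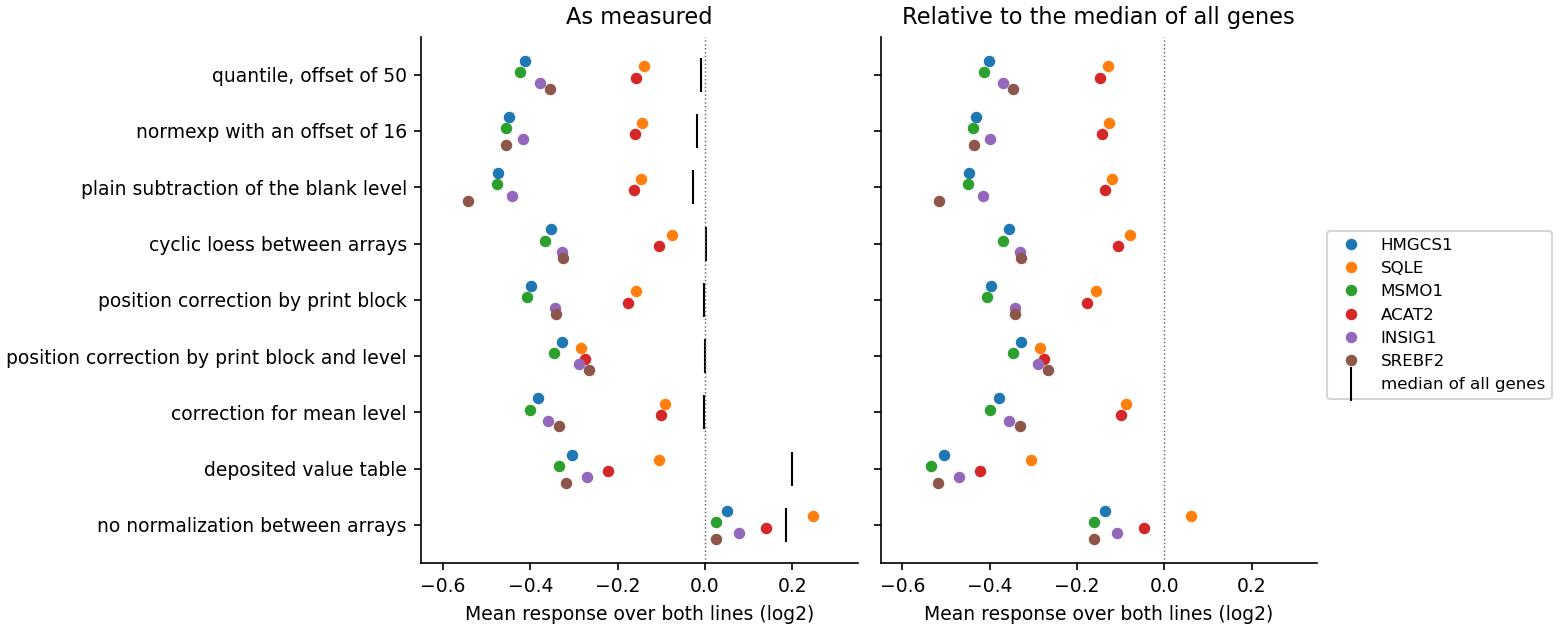
Mean response over both lines (12 h over 0 h, log2) of the 6 sterol genes under each way of processing, as measured (left) and relative to the median of all genes (right); each point is 1 gene and the vertical ticks are the medians of all genes. SQLE and ACAT2 join the other 4 genes with the correction by block and level, and without normalization between arrays the 6 genes lie above 0 but, except SQLE, below the median of all genes.

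The wider pathway was read from lists of genes. Of 23 listed cholesterol synthesis enzymes 19 were measured, and in the fit over both lines 6 fell and 0 rose, with a median log2 ratio of -0.15 against -0.01 for all genes. Besides HMGCS1 and MSMO1 these were CYP51A1, lanosterol demethylase, at -0.36 (adjusted p = 0.0251), NSDHL, the dehydrogenase that acts with MSMO1, at -0.36 (0.0281), DHCR7, the last reductase of one branch, at -0.33 (0.0289), and EBP, the sterol isomerase, at -0.18 (0.0488). All of these except HMGCS1 act from lanosterol onwards. The other measured enzymes from lanosterol onwards did not pass limma's adjusted p. They were SC5D at -0.15 (0.0703), LBR at -0.13 (0.0836), TM7SF2 at -0.03 (0.857) and HSD17B7 at 0.03 (0.773). SC5D and LBR had unadjusted limma p-values of 0.0143 and 0.0193. Of the 6 measured enzymes from mevalonate to the isoprenoids 0 passed limma's adjusted p. An unadjusted limma p under 0.05 was found for 4 of them, and for 5613 of all 17085 genes. Over both lines MVK, mevalonate kinase, was at 0.05 and GGPS1, geranylgeranyl diphosphate synthase, at 0.15. The 4 with an unadjusted p under 0.05 were below 0, PMVK, phosphomevalonate kinase, at -0.14, MVD, the decarboxylase, at -0.20 (adjusted p = 0.0534), IDI2, an isomerase, at -0.11 and FDPS, farnesyl diphosphate synthase, at -0.27. With plain subtraction and on the deposited values 0 of 19 fell, where 0% and 0.257% of all genes did. With the correction by block and level 9 fell and 1 rose, where 10% of all genes fell and 14.2% rose. Without normalization between arrays 8 of 19 rose and 0 fell, where 40.5% of all genes rose, at a median of 0.14 where that of all genes was 0.19, and 11 of 19 lay below the median of all genes.

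Among 9 detected genes of SREBP processing, INSIG1 fell while RNF139 and ERLIN1, both of the endoplasmic reticulum membrane, rose. Of all genes 7.3% fell and 7.95% rose. Without normalization between arrays 5 rose and 0 fell, where 40.5% of all genes rose and 0.123% fell. RNF139, a ubiquitin ligase, had intensities of 79.1 and 157.1 in LGP2 cells and 88.9 and 149.6 in 4KR cells, and its mean response was 0.54 (limma adjusted p = 0.0243). ERLIN1 was at 0.25 (adjusted p = 0.0332). SCAP, at -0.03 and -0.01, did not pass, and SREBF1, the gene of SREBP1, was detected on 0 arrays. INSIG2, a second anchor of SCAP, had intensities of 54.5 and 97.9 in LGP2 cells and 68.8 and 60.7 in 4KR cells, and its probe also lies in block 21. Its responses were 0.41 and -0.26, and 0.22 and -0.22 with the correction by block and level.

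Among 8 measured genes of uptake and intracellular transport, 3 fell and 0 rose, where 7.3% of all genes fell and 7.95% rose. Without normalization between arrays 1 fell and 3 rose, where 0.123% of all genes fell and 40.5% rose. NPC2, which hands cholesterol out of the lysosome, had intensities of 753.9 and 472.5 in LGP2 cells and 597.7 and 357.7 in 4KR cells, with log2 ratios of -0.71 in each line (limma adjusted p = 0.0193). It was lower at 12 h in both lines by more than any of the 6 members. LIPA, the lysosomal lipase, was at -0.34 (adjusted p = 0.0338) and STARD4, a sterol carrier protein, at -0.25 (0.0345). MYLIP, a ubiquitin ligase induced by LXR, was at 0.19 and did not pass (0.12).

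SREBP also drives fatty acid synthesis, and of 11 genes measured there 6 fell and 0 rose, with a median of -0.29. Of all genes 7.3% fell and 7.95% rose. All 11 were below 0 in both lines, as were 54% of all genes in LGP2 cells and 54.3% in 4KR cells. LPIN1, a phosphatidate phosphatase, was at only -0.01 in LGP2 cells, where all genes had a median of -0.01. With plain subtraction and on the deposited values 0 of 11 fell, where 0% and 0.257% of all genes did, and on the latter 8 of 11 were below 0. They included SCD, the stearoyl-CoA desaturase, at -0.45 (adjusted p = 0.0375), ME1, malic enzyme, at -0.44 (0.0245), FADS2, a desaturase, at -0.40 (0.0247) and FASN, fatty acid synthase, at -0.37 (0.0251). ACLY, ATP citrate lyase, was at -0.41 and did not pass (0.0702). Without normalization between arrays 1 of 11 rose and 0 fell, where 40.5% of all genes rose and 0.123% fell. In that setting 4 of 11 were below 0 and 10 of 11 below the median of all genes. Of 10 genes of the oxysterol and efflux list, 0 passed the limma test, with a median of -0.01. An unadjusted limma p under 0.05 was found for 2 of them, and for 5613 of all 17085 genes. Several were dim: CYP46A1 had intensities of 1.6 to 3.9 and ABCG1 of 5.8 to 7.8, where the array median was 25, although SOAT1 had 102.5 to 120.9. The offset shrinks ratios of dim genes, and the part of level in this difference between lists was not tested. APOE was at -0.11 and SOAT1, which esterifies cholesterol, at -0.08. CH25H, the interferon-inducible cholesterol hydroxylase, was detected on 1 array only, LGP2 cells at 12 h, so no ratio is given.

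Of 14 genes often used as controls, 4 fell and 0 rose, with a median of -0.24, where 7.3% of all genes fell and 7.95% rose. Without normalization between arrays 3 rose and 0 fell, where 40.5% of all genes rose and 0.123% fell. EEF1A1, a translation elongation factor, was at -0.52 (limma adjusted p = 0.0242), and ACTB, at -0.41, did not pass (0.0717). TUBA1B, a tubulin, was at 0.50 in LGP2 cells and -0.17 in 4KR cells, with its probe in block 21, and TBP, the TATA-binding protein, at -0.15 and 0.45, with its probe in block 24. The median of the 6 sterol genes, -0.37 in the same fit, lay 0.36 below that of all genes, and that of the control genes 0.23 below. The wider sterol lists lay nearer to all genes than the control genes did. Relative to all genes the 19 synthesis enzymes were at -0.14, SREBP processing at -0.10 and uptake and transport at -0.11. The fatty acid genes were at -0.28. No test of the difference between these lists was made. On the deposited values the distances of the 6 sterol genes and of the control genes were 0.49 and 0.45, and the synthesis enzymes were at -0.31.

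Many other genes had a profile like that of the 6 members. Centred on each gene's own mean over the 4 arrays, the members averaged 0.19 in LGP2 cells at 0 h, 0.13 in 4KR cells at 0 h, -0.03 in LGP2 cells at 12 h and -0.28 in 4KR cells at 12 h. Among 15653 other genes detected on all arrays, 956 lay within a root mean square difference of 0.1 of this profile. The closest 5 were LIG1, a DNA ligase, at 0.0137, SLC25A4, a mitochondrial carrier, at 0.0193, ATP5F1B, a subunit of ATP synthase, at 0.0219, ISOC2 at 0.0229 and ANP32A at 0.0238. The members themselves lay between 0.0452 for SREBF2 and 0.111 for ACAT2 from their own mean.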

How the data were processed

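Single-colour arrays of Cy5-labelled aRNA were analysed, 1 for each of 4 groups. Per the file headers, the deposited scanner tables give the median intensity of each spot from readings at 3 gains, not normalized. The table deposited by the authors holds intensity values that equal the spot signal above the blank spots, scaled to a median of 25 an array (largest residual 0.0531). Scanner software and genome build: not given in the sources used here. Because the scanner's background column followed the spot signal (correlation of logarithms 0.991 to 0.997), it was not used.

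Signals were corrected with limma 3.58.1 in R 4.3.3 (normexp against the mean of 384 blank spots, offset 50, fitted on all spots), quantile normalized and put on the log2 scale. The offset shrinks ratios of dim genes. A probe was detected above the mean plus 2 SD of the blanks. Probes of a gene were averaged, and 1 rejected probe was left out. Of 24460 probes 21707 had 1 gene name, 0 several and 2753 none. The fit over line and time used limma lmFit and eBayes (prior SD 0.0358, prior degrees of freedom 2.28) and was tested on simulated data. Its covariates were line and time, with no interaction. Single-array ratios have no test.

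The members and lists were chosen with earlier results of these data known. Other genes are named by rule: SREBF1, SCAP, INSIG2 and CH25H, up to 4 per list with the largest mean response, and the 5 genes outside the lists nearest in profile. DHCR7, EBP, SC5D, LBR, TM7SF2, HSD17B7, FASN, LPIN1, TUBA1B, TBP, MX1, DHX58 and the isoprenoid enzymes were named after their values were seen. Alternatives were the offset, plain subtraction, 2 other normalizations, the deposited table, position, level, probe choice, the filter and the prior. The number of arrays limits the precision. Some items named by the rule are not reported here.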

Additional observations from a re-analysis of the deposited data

Results flagged for a closer look

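Among the 6 measured sterol genes and the other genes named by rule and detected on all 4 arrays, the response to 12 h of short poly I:C went opposite ways in the 2 lines for 3, above 0 in LGP2 cells and below 0 in 4KR cells, with 1 array behind each value, so the difference was not tested. The response in 4KR cells minus that in LGP2 cells was -0.42 for SQLE, -0.52 for ACAT2 and -0.67 for INSIG2 on the log2 scale. All 3 probes lie in print block 21, where the median difference over 191 bright probes was -0.39. Corrected by block and level, a choice made once the data had been seen, they came to 0.06, 0.0027 and -0.44.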

How the results depend on the processing

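Values are medians of the 6 genes (log2) unless a gene is named. The fit over line and time compares 12 h with 0 h within each line. Beyond that pairing by line, no block by replicate number could be fitted, since each group has 1 array. Without normalization between arrays the responses were 0.0285 in LGP2 and 0.13 in 4KR cells (HMGCS1 0.11, SQLE 0.16, MSMO1 0.16, ACAT2 0.0182 and INSIG1 0.22 in 4KR cells), their difference 0.0184, the line ratios -0.11 at 12 h and -0.13 at 0 h, the mean response 0.0641 (HMGCS1 0.0498, SQLE 0.25, MSMO1 0.0259, INSIG1 0.0784) with 0 genes of the set lower in limma's test (1 at an unadjusted p under 0.05), and the line difference -0.12. There 21 of all genes fell and 6927 rose, against 1247 and 1359, and the median of all genes was 0.19. In that setting 8047 genes had an unadjusted limma p under 0.05 for the mean response. Plain subtraction gave -0.38 in LGP2 cells, a difference of -0.27 and a mean response of -0.46, with 0 of 6, and 0 of all genes lower and 74 higher. The deposited values gave -0.14 in LGP2 cells, a difference of -0.34, -0.42 at 12 h, a mean response of -0.29 with 0 of 6, and a line difference of -0.26, and 41 of all genes fell and 1965 rose. Cyclic loess gave -0.25 (LGP2), -0.34 (4KR) and a mean response of -0.33, and an offset of 16 a mean response of -0.43. The added correction by block and level gave -0.30 in 4KR cells, a difference of 0.0033 (SQLE 0.0565, ACAT2 0.0027), line ratios of -0.12 at 12 h and -0.13 at 0 h, and a mean response of -0.29 with 5 of 6 lower, and 2419 of all genes rose. Of the control genes 7 fell there and 8 with an offset of 16, against 4. Leaving out each array in turn gave a mean response of -0.41 or -0.30 and a line difference of -0.26 or -0.0773. These are only the responses of the single lines and the line ratios at the single times, so they are no separate check. That fit has no residual degree of freedom and so no test. The causes of the shifts between the ways of processing were not tested. Correction for mean level or by block alone, the brightest probe, the filter and the prior each left 3 or 4 of the 6 genes past the threshold, against 3.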
